A study of Mus musculus with 6 samples.

Results

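Of the 54532 genes listed in the expression table, 10 were chosen by name for their place in antioxidant defence: Nfe2l2, which encodes the transcription factor NRF2, and Hmox1, Nqo1, Gclc, Gclm, Slc7a11, Txnrd1, Srxn1, Gpx4 and Sod2, which encode enzymes and a transporter that handle oxidants. RNA was sequenced from the peri-infarcted and infarcted heart of 3 WT and 3 Crlf2-/- mice on day 7 after permanent ligation of the left anterior descending coronary artery, with 1 library per mouse. All mice had a C57BL/6 background, given as C57BL/6J in the study's methods. Young adult male WT mice came from an animal supplier, and the Crlf2-/- mice, which lack the receptor chain for thymic stromal lymphopoietin (TSLP) in the whole body, were made by another company, so genotype and source cannot be told apart. The 6 libraries hold no uninjured heart, so the values describe the infarcted heart of both genotypes and not a response to infarction.

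NRF2 is held at low levels by KEAP1, which marks it for degradation, and oxidants or electrophiles that modify KEAP1 let NRF2 accumulate. With a small MAF partner it then binds antioxidant response elements near genes for glutathione synthesis, thioredoxin recycling, quinone reduction and haem breakdown, while BACH1 occupies the same elements as a repressor. NRF2 activity is mostly set at the level of the protein, so the mRNA of Nfe2l2 is not a measure of it. In the infarcted heart these enzymes are found both in surviving cardiomyocytes, which are rich in mitochondria, and in macrophages that clear dead cells and haem.

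Levels were read from the deposited table as FPKM, which are fragments per kilobase of gene, relative to the size of the library. After a further scaling between libraries (trimmed mean of M values), limma was run on log2(FPKM + 0.1) for the 15520 genes that passed a filter on low values. A gene was called where its p, adjusted by the Benjamini-Hochberg method, did not exceed 0.05 and its log2 fold change was 0.5 or more in either direction. Fold changes are given as Crlf2-/- against WT with the standard error (SE), and they understate the change of low genes because of the added 0.1. Each library held 18508646 to 19682428 fragments on listed genes. Crlf2 itself measured 26.6, 25.1 and 21.6 FPKM in WT hearts and 13.2, 18.7 and 19.8 FPKM in Crlf2-/- hearts, so the groups did not overlap. With a log2 fold change of -0.52 (SE 0.16, limma adjusted p = 0.514) the targeted gene was not called either. In each Crlf2-/- library 437 to 667 fragments of the gene were still counted. The table does not say which part of the gene was deleted.

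All 10 genes passed the filter, and none of them was called (0 of 10). Over all tested genes, 0.0129% were called. Of the 10, 6 had a log2 fold change above 0 and 4 below, with a median of 0.039, and over all tested genes 7609 were above 0 and 7911 below. Sod2 was the single gene with an unadjusted p under 0.05, where 6.56% of all tested genes had one, and also the single gene whose WT and Crlf2-/- values did not overlap, where 11.8% of all tested genes did not. A count of 1 in 10 is near both of these shares, and it was 2 in 10 for the unadjusted p when WT replicate 1 or Crlf2-/- replicate 3 was left out. The p-values measure the spread between mice, and the smallest that an exact permutation test of 3 against 3 can give is 0.1. In bulk tissue, fewer cells of a type and less RNA per cell cannot be told apart.

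For 4 of the genes, the promoter windows hold the core of the antioxidant response element, TGACNNNGC. These stretches are shown because NRF2 and its MAF partner bind elements with this core, and binding to the stretches themselves was not tested. RefSeq promoter windows (GRCm38.p6, 250 bases before to 50 bases after a start) were given for 8 of the 10 genes and searched on both strands. The core is in capitals with 10 bases on each side, written 5′ to 3′ on the strand of the gene, and where the core lies on the other strand the capitals show its reverse complement.
Nfe2l2: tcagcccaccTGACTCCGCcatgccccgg
Gclm: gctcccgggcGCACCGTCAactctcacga
Txnrd1: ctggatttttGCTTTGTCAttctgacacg
Srxn1: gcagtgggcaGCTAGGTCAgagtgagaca
The Nfe2l2 stretch lies at chr2:75704885-75704913 on the minus strand, with its core centred 236 bases before the start and upstream of the gene as GENCODE M21 draws it. The Gclm stretch (chr3:122245413-122245441, plus strand) is centred 130 bases before the start and also lies upstream of the gene. In Txnrd1 the stretch (chr10:82859104-82859132, plus strand) is centred 88 bases before 1 of 3 annotated starts and falls in an intron of longer transcripts. The Srxn1 stretch (chr2:152105542-152105570, plus strand) is centred 32 bases after the start, in the untranslated part of an exon. The windows of Nqo1, Slc7a11, Gpx4 and Sod2 do not hold these letters, and elements outside the windows were not searched for. Over all windows of this length 12.4% of 32851 held the core, against 4 of the 13 windows of these genes, and over genes the shares were 14.0% of 27025 and 4 of 8. A match is a match of letters and not a measured binding site, and the TGAC within it is shared with the motifs of AP-1 and CREB.

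The level of Nfe2l2, which encodes NRF2, was close between genotypes. Nfe2l2 (ENSMUSG00000015839, GRCm38 chromosome 2, 75675513 to 75704641, minus strand) measured 34.3, 32.3 and 34.2 FPKM in WT hearts and 34.3, 33.9 and 28.3 FPKM in Crlf2-/- hearts. The groups overlapped, and Crlf2-/- replicate 3 was the lowest of the 6 libraries. Means were 33.6 ± 1.15 and 32.1 ± 3.34 FPKM (SD, n = 3), a log2 fold change of -0.066 (SE 0.11, 95% interval -0.32 to 0.19, limma adjusted p = 0.994).

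**Figure D1:**
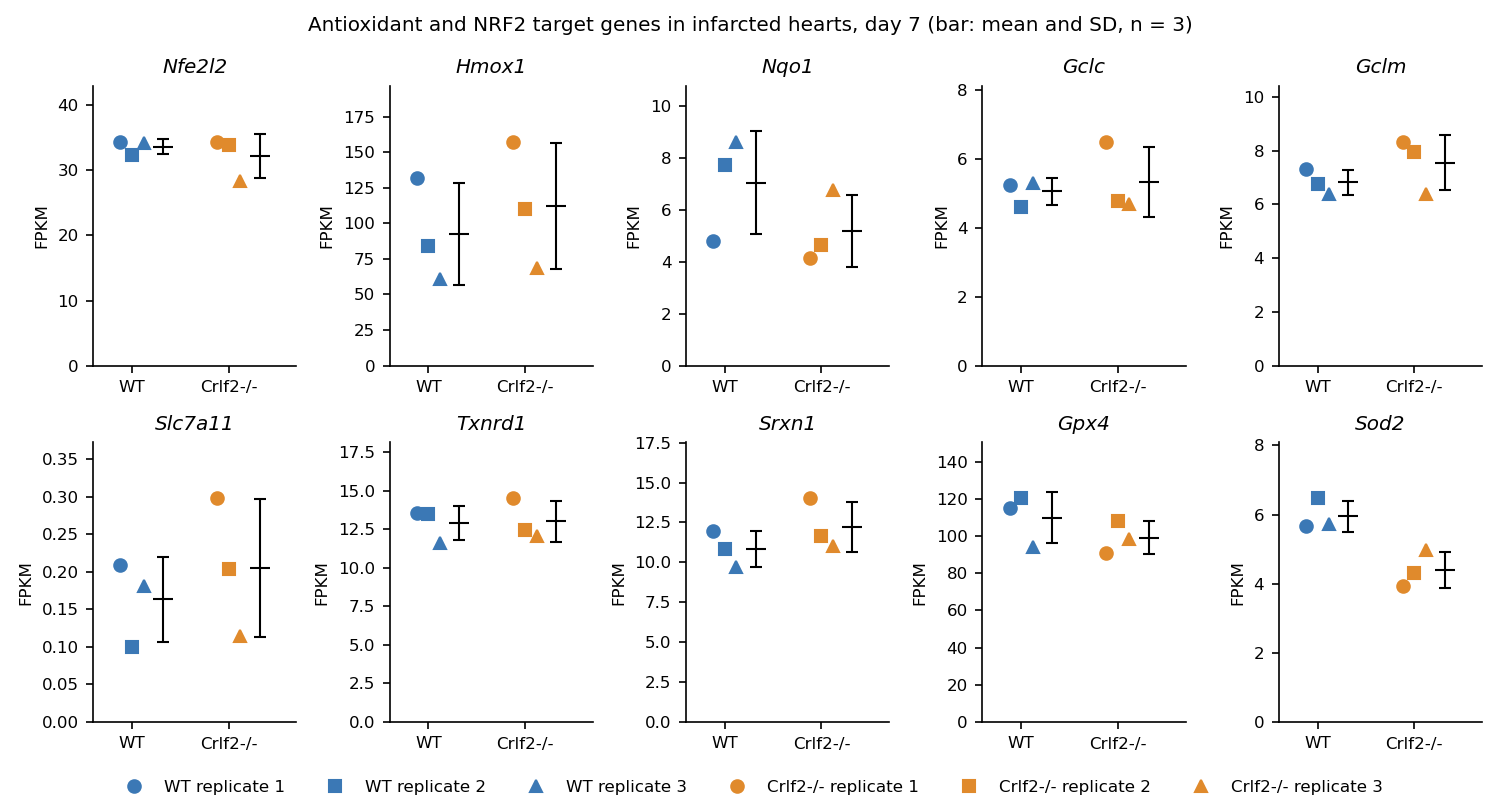
FPKM (vertical axis, from 0) of the 10 genes in each of the 3 WT (blue) and 3 Crlf2-/- (orange) libraries, with symbols for the replicate and bars for the mean and SD. The groups overlap for every gene shown but Sod2, where the WT libraries lie between 5.68 and 6.47 FPKM and the Crlf2-/- libraries between 3.93 and 4.96 FPKM.

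Hmox1 encodes heme oxygenase 1, the inducible enzyme that breaks haem down to biliverdin, carbon monoxide and iron. It lies on chromosome 8 from 75093621 to 75100589 (ENSMUSG00000005413, plus strand) and measured 132, 84.3 and 61.1 FPKM in WT hearts and 157, 110.0 and 68.8 FPKM in Crlf2-/- hearts. Within each genotype the highest library was more than 2 times the lowest, and the order of the 6 libraries alternated between genotypes. Means were 92.5 ± 36.1 and 112 ± 44.2 FPKM (SD, n = 3), and the log2 fold change of 0.27 (SE 0.35) had a 95% interval from -0.53 to 1.08. Single libraries moved this value, which was -0.015 without Crlf2-/- replicate 1, 0.019 without WT replicate 3 and 0.59 without Crlf2-/- replicate 3. Hmox2, the constitutive form of the enzyme, varied less, with means of 19.8 ± 2.06 and 18.1 ± 1.76 FPKM.

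Nqo1 encodes the quinone reductase that uses NADH or NADPH to turn quinones into hydroquinones. The gene (ENSMUSG00000003849, chromosome 8, 107388225 to 107403206, minus strand) measured 4.81, 7.73 and 8.63 FPKM in WT hearts and 4.15, 4.66 and 6.77 FPKM in Crlf2-/- hearts, from 143 to 293 fragments per library. WT replicate 1 lay among the Crlf2-/- libraries. Means were 7.06 ± 2.0 and 5.20 ± 1.39 FPKM (SD, n = 3), with a log2 fold change of -0.42 (SE 0.25, 95% interval -1.0 to 0.16, limma adjusted p = 0.876). Without WT replicate 1 it was -0.67, without WT replicate 3 it was -0.25 and without Crlf2-/- replicate 1 it was -0.28. The order of libraries was close to the reverse of that for Hmox1. The ratio of Hmox1 to Nqo1 FPKM was 27.4, 10.9 and 7.09 in WT hearts and 37.9, 23.6 and 10.2 in Crlf2-/- hearts, so it ranged more within each genotype than the means of 15.1 ± 10.8 and 23.9 ± 13.9 differed.

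Glutathione is made from cystine that enters through the SLC7A11 transporter, and its first and limiting step is carried out by glutamate-cysteine ligase, a pair of the catalytic subunit GCLC and the modifier subunit GCLM. Gclc (ENSMUSG00000032350, chromosome 9, 77754535 to 77794485, plus strand) measured 5.26, 4.62 and 5.32 FPKM in WT hearts and 6.50, 4.78 and 4.70 FPKM in Crlf2-/- hearts. Crlf2-/- replicate 1 stood above the other 5 libraries, which lay within 4.62 to 5.32 FPKM, and the log2 fold change was 0.061 (SE 0.15, 95% interval -0.29 to 0.41). Gclm (ENSMUSG00000028124, chromosome 3, 122245557 to 122270732, plus strand) measured 7.32, 6.76 and 6.40 FPKM in WT hearts and 8.32, 7.94 and 6.39 FPKM in Crlf2-/- hearts. The groups again overlapped, since Crlf2-/- replicate 3 was the lowest of all, and the log2 fold change was 0.14 (SE 0.13, 95% interval -0.15 to 0.43). The ratio of Gclm to Gclc FPKM stayed between 1.20 and 1.66 and was 1.35 ± 0.134 in WT and 1.43 ± 0.201 in Crlf2-/- hearts.

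Slc7a11 (ENSMUSG00000027737, chromosome 3, 49892526 to 50443614, minus strand) was the lowest of the 10 genes. It measured 0.209, 0.0994 and 0.181 FPKM in WT hearts and 0.298, 0.203 and 0.115 FPKM in Crlf2-/- hearts, from 30 to 92 fragments per library. The groups overlapped, and the log2 fold change of 0.20 (SE 0.30) had a 95% interval from -0.50 to 0.89, so a difference of either sign was not resolved in these libraries. Slc3a2, the partner that carries the transporter to the membrane and serves other amino acid carriers as well, was 81.0 to 242 times as high in FPKM as Slc7a11 and measured 23.6 ± 2.79 and 24.9 ± 1.18 FPKM.

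Txnrd1 encodes the cytosolic thioredoxin reductase that keeps thioredoxin reduced, and Srxn1 encodes sulfiredoxin, which repairs over-oxidised peroxiredoxins. Txnrd1 (ENSMUSG00000020250, chromosome 10, 82833951 to 82897712, plus strand) measured 13.6, 13.5 and 11.6 FPKM in WT hearts and 14.5, 12.5 and 12.1 FPKM in Crlf2-/- hearts. With means of 12.9 ± 1.10 and 13.0 ± 1.31 FPKM (SD, n = 3) the groups overlapped, and the log2 fold change was 0.017 (SE 0.11, 95% interval -0.25 to 0.28), the closest to 0 of the 10 genes. Srxn1 (ENSMUSG00000032802, chromosome 2, 152105516 to 152111376, plus strand) measured 11.98, 10.8 and 9.70 FPKM in WT hearts and 14.0, 11.6 and 11.0 FPKM in Crlf2-/- hearts. WT replicate 1 lay above 2 of the Crlf2-/- libraries, and the log2 fold change was 0.17 (SE 0.13, 95% interval -0.12 to 0.47, limma adjusted p = 0.936).

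Gpx4 encodes the selenoenzyme that reduces lipid peroxides in membranes and is the main brake on ferroptosis. The gene (ENSMUSG00000075706, chromosome 10, 80047166 to 80056439, plus strand) measured 115, 120 and 94.3 FPKM in WT hearts and 90.9, 108 and 98.7 FPKM in Crlf2-/- hearts. The groups overlapped, with a log2 fold change of -0.14 (SE 0.13, 95% interval -0.44 to 0.16). A processed pseudogene, Gpx4-ps2 (chromosome 10, 45875291 to 45876086), was listed at 36.0 to 56.0 FPKM, which was 39.6% to 48.7% of the Gpx4 value in the same library, and had a log2 fold change of -0.19. Reads of near-identical copies can be split between them in counting, so the level of Gpx4 is uncertain.

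Sod2 encodes the manganese superoxide dismutase of the mitochondrial matrix. The gene (ENSMUSG00000006818, chromosome 17, 13006846 to 13040063, plus strand) measured 5.68, 6.47 and 5.72 FPKM in WT hearts and 3.93, 4.31 and 4.96 FPKM in Crlf2-/- hearts. The highest Crlf2-/- value was thus below the lowest WT value. Means were 5.96 ± 0.450 and 4.40 ± 0.522 FPKM (SD, n = 3), a log2 fold change of -0.43 (SE 0.12, 95% interval -0.71 to -0.15) with an unadjusted limma p of 0.00789. This did not pass the adjustment over all genes (limma, Benjamini-Hochberg adjusted p = 0.433), and the two-sided exact permutation test gave p = 0.1, the smallest possible. Leaving out each library in turn gave log2 fold changes between -0.51 and -0.36. The cytosolic enzyme Sod1 had a log2 fold change of -0.13 and the extracellular enzyme Sod3 one of 0.089, with overlapping groups in both. The ratio of Sod2 to Sod1 FPKM was 0.253 ± 0.0274 in WT and 0.205 ± 0.0263 in Crlf2-/- hearts, with overlapping groups and an exact permutation p of 0.2.

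**Figure D2:**
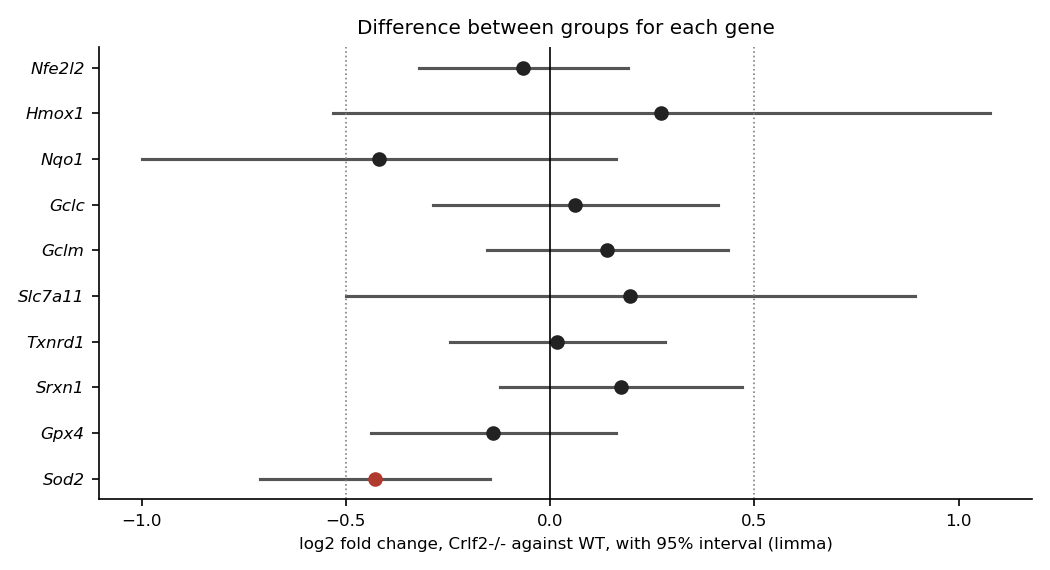
Log2 fold change of each gene (points, Crlf2-/- against WT, limma) with its 95% interval (lines); dotted lines mark the threshold of 0.5 in either direction. The interval holds 0 for 9 of the 10 genes, and the point in red, Sod2, has an interval from -0.71 to -0.15.

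The 95% intervals lay wholly within 0.5 of 0 on the log2 scale for 6 of the 10 genes, namely Nfe2l2, Gclc, Gclm, Txnrd1, Srxn1 and Gpx4. For Hmox1, Nqo1 and Slc7a11, where libraries of the same genotype spread most, and for Sod2 they reached past 0.5. The median absolute log2 fold change of the 10 genes was 0.157, beside 0.119 over all tested genes. The direction of Hmox1, Gclc, Txnrd1 and Slc7a11 turned when Crlf2-/- replicate 1 was left out, with values of -0.015, -0.091, -0.066 and -0.020. Gclc also turned without WT replicate 2 (-0.0038) and Txnrd1 without WT replicate 3 (-0.046). Nfe2l2 turned to 0.025 without Crlf2-/- replicate 3. With 1 library left out, Gclm (0.063 to 0.26), Srxn1 (0.068 to 0.25), Gpx4 (-0.24 to -0.071), Nqo1 and Sod2 kept their direction.

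The 10 genes spanned a wide range of levels in these hearts. Per length, Gpx4 and Hmox1 were highest, with means over the 6 libraries of 105 and 102 FPKM, and neither led in more than 3 of 6 libraries. Nfe2l2 followed at 32.9, Txnrd1 at 13.0 and Srxn1 at 11.5 FPKM, each above the next in all 6 libraries. Among Gclm (7.19), Nqo1 (6.13), Gclc (5.20) and Sod2 (5.18 FPKM), neighbours in this order changed places between libraries and could not be ordered. Gclm was above both Gclc and Sod2 in every library. Slc7a11, at 0.184 FPKM, lay below all others in every library. Other listed genes overlap Txnrd1 (3 genes), Gclm (2), Slc7a11 (5) and Nfe2l2 (1), and the highest value among these in any library was 1.75 FPKM, for a gene that overlaps Txnrd1.

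Several of the genes varied together from library to library. In both genotypes Hmox1, Gclm, Txnrd1 and Srxn1 fell from replicate 1 to replicate 3, and Nqo1 rose. This shared variation and the replicate number cannot be told apart. Crlf2-/- replicate 1 had the highest value of 6 genes, Hmox1, Gclc, Gclm, Slc7a11, Txnrd1 and Srxn1, a group that was picked after its values were seen. All 15 pairs among these 6 had a positive Pearson's r over the 6 libraries, from 0.48 to 0.92, and Nqo1 had a negative r with each of them, from -0.93 to -0.48. Without the 2 libraries farthest from the median of Gclc, r was -0.38 for Gclc and Srxn1 and -0.19 for Gclc and Gclm. The other pairs of the 6 stayed positive with 2 libraries left out in this way, down to 0.14 for Txnrd1 and Slc7a11. The closest pair, Hmox1 and Srxn1, had r = 0.92 (two-sided exact permutation p = 0.00417) and Spearman's rho = 0.94 (exact permutation p = 0.0167), with r = 0.87 without the 2 libraries farthest from the median of Hmox1. Hmox1 and Nqo1 had r = -0.93 (exact permutation p = 0.0208) and rho = -0.89 (exact permutation p = 0.0333), with r = -0.84 without those 2 libraries. Both relations were as strong after the mean of each genotype was taken out (r = 0.95 and -0.97), and each genotype alone holds too few libraries for a value. The pair of Txnrd1 and Srxn1, at r = 0.85 (exact permutation p = 0.0264; rho = 0.83, exact permutation p = 0.0583), fell to 0.21 without the 2 farthest libraries and so rests on them. Of the 45 pairs, 9 had an unadjusted exact permutation p under 0.05 for r, and 0 passed the Benjamini-Hochberg adjustment over the 45, where the lowest adjusted exact permutation p was 0.156 for r and 0.214 for rho.

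**Figure D3:**
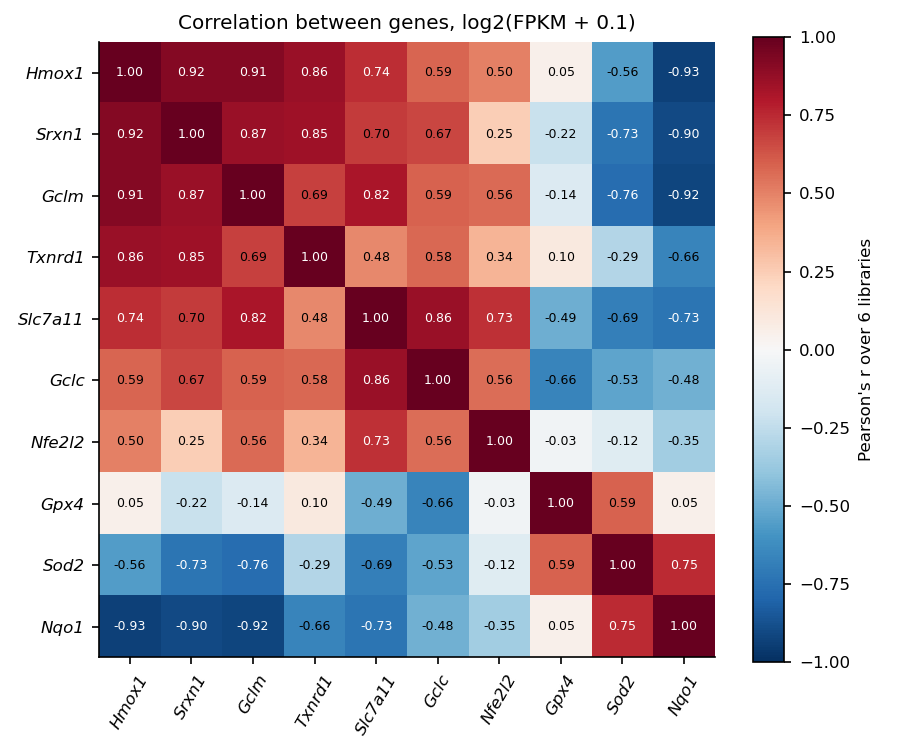
Pearson's r between each pair of genes over the 6 libraries, on log2(FPKM + 0.1), from -1 (blue) to 1 (red). Hmox1, Srxn1, Gclm, Txnrd1, Slc7a11 and Gclc form a block of positive values (0.48 to 0.92), and Nqo1 is negative with each of them (-0.93 to -0.48). These 6 genes are all highest in Crlf2-/- replicate 1. The r of Gclc with Srxn1 and with Gclm turns negative without the 2 libraries farthest from the median of Gclc.

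Levels of cell type markers moved with some of these genes. The summed FPKM of 12 cardiomyocyte markers, none of them at 0, was 1531, 2708 and 2365 in WT hearts and 1053, 1049 and 1922 in Crlf2-/- hearts. All 12 had a log2 fold change below 0 (median -0.72), 5 of them at an unadjusted limma p under 0.05 and 0 called, although the sums of the genotypes overlapped. Actc1 was the largest single part of the sum in every library, at 685 to 1399 FPKM in WT and 479 to 907 FPKM in Crlf2-/- hearts. Single markers differed from the sum, since Ckm was highest (28.3 FPKM) in Crlf2-/- replicate 2, where the sum was lowest. Relations between genes and marker sums were taken on log2 values of both. Over the 6 libraries the cardiomyocyte sum followed Nqo1 with r = 0.93 (exact permutation p = 0.0167; rho = 0.89, exact permutation p = 0.0333), and with r = 0.89 without the 2 libraries farthest from its median. For Sod2 r was 0.90 (exact permutation p = 0.025; rho = 0.89, exact permutation p = 0.0333) and 0.57 without the 2 farthest. WT replicate 1 had fewer cardiomyocyte marker FPKM than Crlf2-/- replicate 3 and a higher Sod2 value (5.68 against 4.96 FPKM). Gclm went the other way, with r = -0.91 (exact permutation p = 0.025; rho = -0.71, exact permutation p = 0.136), and -0.63 without the 2 farthest. Srxn1 had r = -0.80 with the same sum (exact permutation p = 0.0472; rho = -0.77, exact permutation p = 0.103), and -0.77 without the 2 farthest. Nqo1 also followed the sum of 8 endothelial markers, with r = 0.85 (exact permutation p = 0.00417; rho = 0.94, exact permutation p = 0.0167), and 0.90 without the 2 farthest. The endothelial sum was 154 to 179 FPKM in WT and 147 to 155 FPKM in Crlf2-/- hearts, with no marker at 0. The part of cardiomyocyte or endothelial RNA in the values of Nqo1, Sod2, Gclm and Srxn1 was not tested.

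The summed FPKM of 12 macrophage and monocyte markers, none of them at 0, was 4225, 3158 and 2377 in WT hearts and 3464, 3279 and 2804 in Crlf2-/- hearts. Of these markers 10 had a log2 fold change above 0 and 2 below, with a median of 0.097. Lyz2 alone made up 49.9% to 61.4% of this sum. The sum followed Hmox1 with r = 0.85 (exact permutation p = 0.0278; rho = 0.94, exact permutation p = 0.0167), and with r = 0.93 without the 2 libraries farthest from its median. Single markers differed in this, since Ccr2 was highest (20.4 FPKM) in WT replicate 3, where Hmox1 was lowest, and Csf1r ranged only from 76.6 to 88.3 FPKM. The sum of 8 neutrophil markers, of which Ly6g and Ngp were at 0 in some libraries, followed Hmox1 with r = 0.88 (exact permutation p = 0.0208; rho = 0.94, exact permutation p = 0.0167) and r = 0.92 without the 2 farthest. It was 16.6 to 28.7 FPKM in WT and 18.4 to 23.9 FPKM in Crlf2-/- hearts. Of 80 relations between a gene and a marker list, 10 had an unadjusted exact permutation p under 0.05 for r and 0 passed the adjustment, with a lowest adjusted exact permutation p of 0.247 for r and 0.267 for rho.

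**Figure D4:**
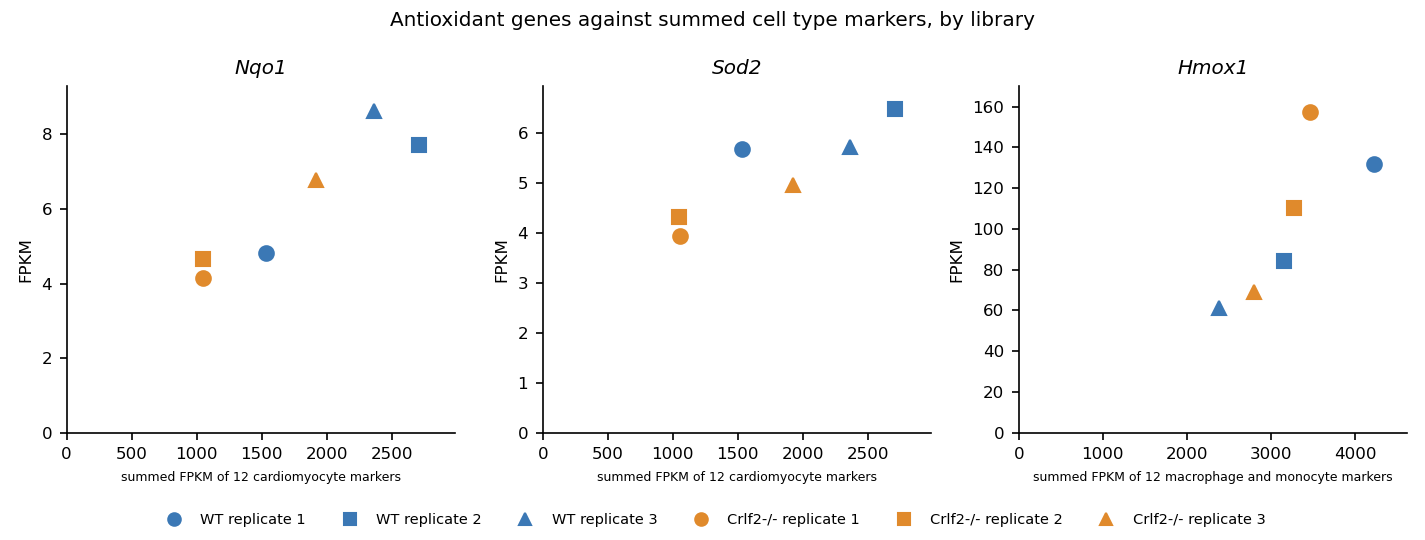
FPKM of Nqo1 and Sod2 against the summed FPKM of 12 cardiomyocyte markers, and of Hmox1 against that of 12 macrophage and monocyte markers, with 1 point per library (WT blue, Crlf2-/- orange, symbols for the replicate). Nqo1 is higher in libraries with a higher cardiomyocyte sum (r = 0.93) and Hmox1 in those with a higher macrophage sum (r = 0.85). The axes show FPKM, while r was taken on log2 values.

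Of the other marker lists, those of red blood cells, T cells and adipocytes had the lowest medians, and 0 of their genes were called. All 5 tested red blood cell markers had a log2 fold change below 0 (median -1.29), each at an unadjusted limma p under 0.05. T cell markers had log2 fold changes below 0 for 7 of 8 (median -1.12), 7 of them at an unadjusted p under 0.05, and sums of 14.98 to 23.1 FPKM in WT and 9.05 to 11.2 FPKM in Crlf2-/- hearts. Adipocyte markers had them for 4 of 4 tested (median -1.50), 1 of them, Fabp4, at an unadjusted p under 0.05. The adipocyte sums overlapped (37.5 to 103 and 16.9 to 53.8 FPKM), with Lep and Retn at 0 in some libraries. Fabp4, at 15.6 to 37.4 FPKM, was the largest part of this sum except in WT replicate 2 and Crlf2-/- replicate 3. There Cfd was the largest, at 55.9 and 25.4 FPKM, beside 0.930 to 8.58 FPKM in the other libraries. The adipocyte sum thus rested mostly on these markers. Sod2 followed the adipocyte sum with r = 0.87 (exact permutation p = 0.025; rho = 0.77, exact permutation p = 0.103), with 0.57 without the 2 farthest libraries and 0.96 once the mean of each genotype was taken out. Slc7a11 went against it, with r = -0.92 (exact permutation p = 0.0194; rho = -0.83, exact permutation p = 0.0583) and -0.71 without the 2 farthest. Fibroblast and endothelial lists had medians of -0.10 and -0.13. The part of these cells in the results was not tested.

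By likeness over the 6 libraries, on scaled log2 values of genes with a mean of at least 1 FPKM, Hmox1 was closest to Tnfrsf21, Soat1 and Gm48990, with Pearson's r of 0.998, 0.991 and 0.991. Nqo1 was closest to Pdk2, Ppif and Slc25a34 (r of 0.997, 0.995 and 0.992), and Sod2 to Dclk3, Cycs and Aqp1 (each 0.989). Soat1 esterifies cholesterol, Pdk2 restrains pyruvate oxidation in mitochondria, Ppif encodes cyclophilin D and Cycs encodes cytochrome c. For Nfe2l2 the closest were Cnot8, Gmcl1 and Cyb5b (0.999, 0.994 and 0.988), and for Gpx4 they were Clec3b, Snrpe and Ccdc25 (0.995, 0.993 and 0.992). Gclc was closest to Nek4, Gga3 and Vps41 (0.996, 0.994 and 0.988), Gclm to Rnft1, Mapk1ip1l and Apbb1ip (0.990, 0.985 and 0.980) and Slc7a11 to Cops2, Fpr1 and Tbc1d22b (0.996, 0.989 and 0.988). Txnrd1 was closest to Capn2, Ddhd1 and Bbs5 (0.986, 0.984 and 0.982) and Srxn1 to Kpnb1, Trip13 and E2f1 (0.993, 0.983 and 0.981). Those named are the 3 highest of 12129 genes searched (12130 for Slc7a11) over 6 libraries, and the values are given as a description.

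The wider pathway was described with 10 lists of 134 other genes, of which 122 were tested and 0 were called. Of the 122, 54 had a log2 fold change above 0 and 68 below, with a median of -0.020. An unadjusted limma p under 0.05 was found for 6 genes (4.92%, beside 6.56% of all tested genes), and the groups did not overlap for 13 (10.7%, beside 11.8%). Overlap is counted on the further scaled values, and of the 13 only Sesn1 overlapped in the FPKM as deposited. The list medians lay between -0.10 and 0.050.

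Of 12 regulators of NRF2, 0 had an unadjusted p under 0.05. Keap1, the adaptor that marks NRF2 for degradation, measured 8.01 ± 0.2998 and 9.04 ± 1.23 FPKM (log2 fold change 0.17), and the repressor Bach1 14.7 ± 1.29 and 17.0 ± 2.42 FPKM (0.21), with overlapping groups in both. The ratio of Keap1 to Nfe2l2 FPKM ranged from 0.224 to 0.367, the highest in Crlf2-/- replicate 3. Mafg, which encodes a small MAF partner of NRF2, measured 9.87, 10.1 and 9.37 FPKM in WT and 8.92, 8.996 and 9.04 FPKM in Crlf2-/- hearts, without overlap but with a log2 fold change of -0.12 (limma adjusted p = 0.938). The list ran from Nfe2l3 (-0.16) to Trim16 (0.23).

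Among 13 tested genes of glutathione synthesis and recycling, 0 had an unadjusted p under 0.05. Gss, the second enzyme of glutathione synthesis, had a log2 fold change of 0.15, which was the highest of the list, and Gsr, which reduces oxidised glutathione, one of 0.019. Gpx1, the abundant cytosolic peroxidase, measured 248 ± 52.6 and 240 ± 21.6 FPKM. Chac1, which degrades glutathione, was at the low end with -0.32 (1.27 ± 0.0803 and 1.00 ± 0.159 FPKM, without overlap, limma adjusted p = 0.855). Glutathione S-transferases, which join glutathione to electrophiles, spread more widely, with 2 of 19 tested genes at an unadjusted p under 0.05. Gsta1 measured 0.273, 0.434 and 0.191 FPKM in WT and 0.660, 0.583 and 1.35 FPKM in Crlf2-/- hearts (log2 fold change 1.23, SE 0.35, limma adjusted p = 0.419), but from 4 to 29 fragments per library and with near-identical family members. Mgst3, a microsomal member, measured 17.2, 15.5 and 14.0 FPKM in WT and 7.44, 11.1 and 14.0 FPKM in Crlf2-/- hearts (-0.56, SE 0.21, limma adjusted p = 0.656, and -0.32 without Crlf2-/- replicate 1). The highest Crlf2-/- value of Mgst3 all but touched the lowest WT value. Gstm7 had the lowest log2 fold change of the family, -0.77, from 5 to 34 fragments, and it was -0.31 without Crlf2-/- replicate 1 and -1.17 without Crlf2-/- replicate 3.

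In the thioredoxin and peroxiredoxin list, 2 of 16 genes had an unadjusted p under 0.05, and both were lower in Crlf2-/- hearts. Txnip, which binds and inhibits thioredoxin and also restrains glucose uptake, measured 116, 118 and 106 FPKM in WT and 72.2, 79.4 and 92.9 FPKM in Crlf2-/- hearts. The groups did not overlap, with a log2 fold change of -0.48 (SE 0.13, limma adjusted p = 0.357). Sesn1, a stress-responsive regulator of growth signalling, measured 21.2 ± 2.31 and 17.3 ± 1.45 FPKM (-0.29, limma adjusted p = 0.712). Txn1 had a log2 fold change of -0.042 and Prdx1 one of -0.058, and the highest of the list was Msrb1 (0.11). Catalase, encoded by Cat, measured 44.2 ± 1.39 and 40.6 ± 2.60 FPKM (-0.12, with overlap).

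Enzymes that supply NADPH ran from Idh2 (-0.24) to Tkt (0.12), with 0 of 10 at an unadjusted p under 0.05. Of 13 genes of haem and iron handling, 1 had an unadjusted p under 0.05. That gene was Hp, encoding haptoglobin, which binds free haemoglobin. Hp measured 46.4, 53.5 and 17.7 FPKM in WT and 17.2, 14.2 and 21.8 FPKM in Crlf2-/- hearts, so the groups overlapped and WT replicate 3 lay among the Crlf2-/- libraries (-1.01, limma adjusted p = 0.676). Fth1, the heavy chain of ferritin, was the most abundant gene named here at 1971 ± 589 and 1938 ± 245 FPKM (0.013), though ferritin has near-identical copies, and Blvra was the highest of the list (0.092).

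Of 17 tested other NRF2 targets, 0 had an unadjusted p under 0.05, and they ran from Aldh1a1 (-0.29) to Akr1c13 (0.33), both without overlap. In the ferroptosis list, 1 of 10 genes had an unadjusted p under 0.05. Ptgs2, which encodes cyclooxygenase 2 and is used as a marker of ferroptosis but is also induced in inflammation, measured 2.10, 2.44 and 1.80 FPKM in WT and 4.15, 4.48 and 2.69 FPKM in Crlf2-/- hearts. The groups did not overlap (log2 fold change 0.79, SE 0.21, limma adjusted p = 0.357). Alox15, a lipoxygenase, had the highest log2 fold change of that list (0.83), which rested on 5.24 FPKM in Crlf2-/- replicate 1 against 0.226 to 0.832 FPKM elsewhere and was -0.42 without that library, while Steap3 was the lowest (-0.12). NADPH oxidases, which make superoxide, had 0 of 8 tested genes at an unadjusted p under 0.05. Cybb, the phagocyte subunit, measured 44.2 ± 5.39 and 48.8 ± 7.59 FPKM (0.14), and Nox4 10.1 ± 2.96 and 7.81 ± 0.680 FPKM (-0.32), with overlapping groups in both. The value of Nox4 was -0.085 without WT replicate 3, which measured 13.5 FPKM against 8.34 and 8.35 FPKM in the other WT hearts.

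**Figure D5:**
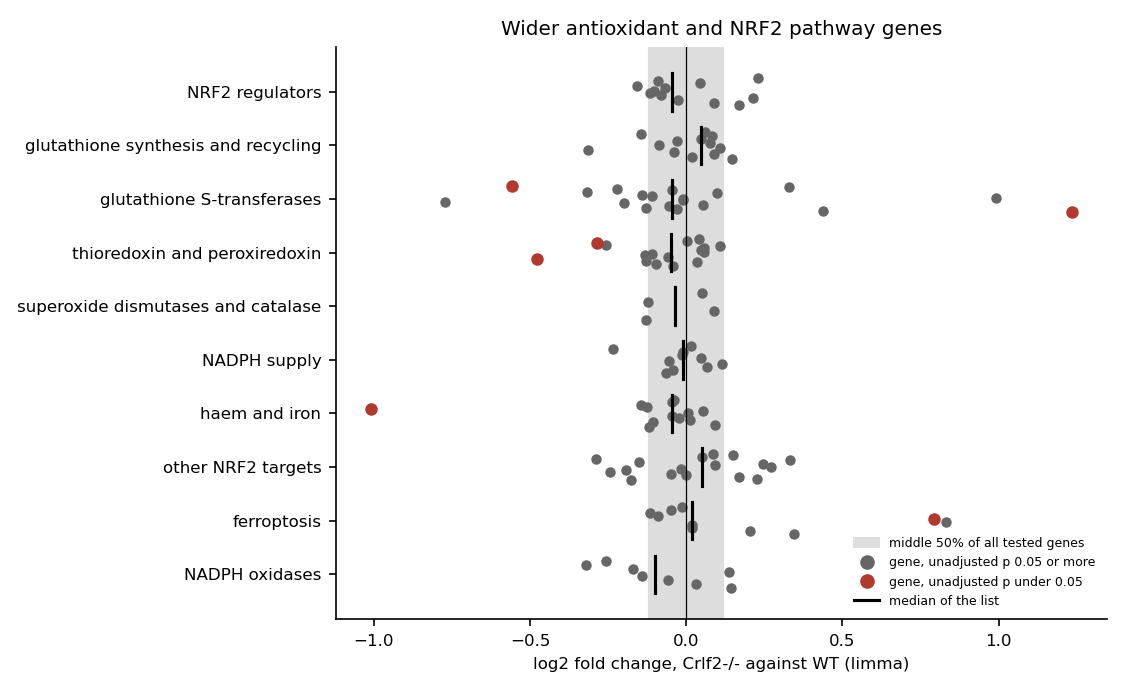
Log2 fold change (Crlf2-/- against WT, limma) of each tested gene in the 10 wider lists, with the median of each list as a black bar and the middle 50% of all tested genes as a grey band. The 6 genes in red have an unadjusted p under 0.05 (Txnip, Sesn1, Mgst3 and Hp below 0, Gsta1 and Ptgs2 above 0), and 0 of the 122 genes passed the adjusted threshold.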

How the data were processed

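The authors trimmed paired reads from 6 hearts, aligned them with HISAT2 (2.0.5 in the submitters' processing notes, which list mm10 beside a human build), counted them by gene with featureCounts and deposited the counts as FPKM. The extraction text in the labels names another tissue than heart; the tissue label and the paper's methods were followed. FPKM times gene length gave whole fragments (within 0.05) for 100% of nonzero values in every library, and the filter used these fragments (10 or more in 3 or more libraries, and 15 or more over all 6). The FPKM denominators were larger than the fragments on listed genes, which made up 82.4% to 85.8% of them. The table held 0 columns of other samples. After scaling of the FPKM (trimmed mean of M values), log2(FPKM + 0.1) was fitted with limma 3.58.1 in R 4.3.3 (lmFit, eBayes with trend and robust) on the whole table, with no block.

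The 10 genes and all lists were chosen with earlier results of these data known. Genes outside the 10 were named if they had the lowest or highest log2 fold change of a list or an unadjusted p under 0.05, if they stood on a written list of 16 (Keap1, Bach1, Mafg, Slc3a2, Gss, Gsr, Gpx1, Txn1, Txnip, Prdx1, Sod1, Sod3, Cat, Hmox2, Fth1, Cybb), or if they were among the 3 closest to 1 of the 10. Correlations used every one of 720 orders of the 6 libraries. Gene positions of all 10 were the same in GENCODE M21 (GRCm38). Alternatives were other scalings, pseudocounts of 1 and 0.01, no filter, a filter of 10 fragments in every library, voom on the fragments, no fold threshold, the replicate number as a block, and leaving out each library. The fit was tested on simulated data. Python 3.11.15, pandas 2.3.3, numpy 2.4.6, scipy 1.17.1 and matplotlib 3.10.9 did the rest. Results resting on a withheld item are not reported here.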

Additional observations from a re-analysis of the deposited data

How the results depend on the processing

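None of the 10 genes was called under any alternative run (0, also by voom and without the fold threshold), and 0 of the pathway genes that passed each filter were called under the alternatives run for them (the fold threshold was not varied there), while 1 of the 10 had an unadjusted limma p under 0.05 in the reported fit. Of all tested genes, 2 were called, 2 by voom, 6 without a filter, 1 with 10 fragments required in every library, and 1 to 17 with 1 library left out (17 without Crlf2-/- replicate 1, 7 without WT replicate 3, and 1 each without WT replicate 1, WT replicate 2 and Crlf2-/- replicate 3). With the replicate number as a block 4 genes were called, and 3 of the 10 genes had an unadjusted limma p under 0.05, namely Hmox1 (0.0487), Nqo1 (0.0208) and Sod2 (0.0136). The labels give the number no further meaning, and the mice were not taken as pairs. Over all tested genes, libraries with the same number had deviations from their group means with correlations of -0.016, 0.115 and 0.120. In both genotypes, however, Hmox1, Gclm, Txnrd1 and Srxn1 fell from replicate 1 to replicate 3, and Nqo1 rose. At each number Hmox1 was higher and Nqo1 lower in the Crlf2-/- library. With the block the SE was 0.11 for Hmox1 and 0.14 for Nqo1, beside 0.35 and 0.25 without it, and for Sod2 it was 0.13 beside 0.12. These values describe variation that goes with the number, and what the number marks was not tested. The other scalings, pseudocounts and filters, voom and the block changed the direction of none of the 10 genes. Leaving out 1 library gave log2 fold changes of -0.015 to 0.59 for Hmox1, -0.091 to 0.14 for Gclc, -0.066 to 0.071 for Txnrd1, -0.020 to 0.43 for Slc7a11 and -0.12 to 0.025 for Nfe2l2. Of the 34 named pathway genes, 16 kept their direction but moved by over 1.5 times with 1 library left out, and the direction turned for 10, namely Nfe2l3 (-0.56 to 0.19), Gsr (-0.15 to 0.23), Gpx1 (-0.16 to 0.13), Txn1 (-0.29 to 0.16), Prdx1 (-0.20 to 0.10), Msrb1 (-0.064 to 0.27), Tkt (-0.0096 to 0.21), Blvra (-0.084 to 0.31), Fth1 (-0.17 to 0.24) and Alox15 (-0.42 to 1.60). The cause was not tested. With 3 mice per genotype, changes within the intervals given for Hmox1, Nqo1 and Slc7a11 could not be resolved, and for Slc7a11 and Gsta1 few fragments limit precision further, where counting error alone is large.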
